A study of Mus musculus with 8 samples.

Results

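Heat shock proteins and chaperonins were followed in the olfactory mucosa of bulbectomised mice, in which the brain target of the olfactory neurons is taken away on both sides. Members were chosen by gene symbol alone: every gene with a platform symbol beginning Hsp (the proteoglycan Hspg2 excepted), Dnaj or Cct followed by a digit, together with Stip1 and Tcp1. This gave 57 genes, read by 80 probe sets, of 8252 named genes and 12488 probe sets on the array. Each gene is described by its brightest probe set.

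Chaperones bind unfolded or partly folded proteins and keep them from aggregating. Hsp70 proteins work in cycles driven by ATP, in which J-domain proteins (the Dnaj genes) deliver the client and start hydrolysis, Hsp110 proteins exchange the nucleotide, and Stip1 passes the client on to Hsp90. The chaperonins are hollow rings in which a protein folds in isolation: Hspd1 with its lid Hspe1 in the mitochondrion, and the ring of Cct subunits and Tcp1, which folds actin and tubulin, in the cytosol. Heat and other protein damage release heat shock factor 1, which binds arrays of the letters GAA and raises the inducible members, whereas unfolded protein in the endoplasmic reticulum raises Hspa5 and Hsp90b1 through a separate element. The olfactory mucosa replaces its sensory neurons throughout life, and removal of the bulb, their target, leads those neurons to die and be replaced.

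Total RNA of the mucosa was hybridised to 8 single-colour arrays, 2 in each of 4 groups. Wild-type mice were C57BL/6, and the mice compared with them are labelled Ccl3-/-. Mice of each genotype received either carrier or the chemokine CCL3, also called MIP-1a, which attracts macrophages, and all groups shared the bilateral bulbectomy. The sources used here do not give age, dose or the interval after surgery. No label says that the replicates of a group came from separate animals, so the p-values below measure only the spread between these arrays. The Ccl3 probe set went against the labels, reading 159.4 to 386.5 on the wild-type arrays and 727.3 to 812.2 on the arrays labelled Ccl3-/-, and no label says which part of the gene was deleted. The genotype is therefore given throughout as labelled. Fewer cells of a type and less RNA per cell cannot be told apart in this bulk tissue.

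The median intensity was 581.4 to 660.3 per array. Wild-type carrier replicate 1 stood apart: its control probe sets for the 3' and 5' ends of Gapdh had a ratio of 2.59, against 0.755 to 1.31 on the other 7 arrays, and its mean correlation with the others was 0.899, against 0.923 to 0.947. The ratio for actin, 1.58 to 2.17 over the 8 arrays, was lowest on that array. Olfactory neurons were represented, since Omp, their defining marker, read 4251.1 to 21778.7, lowest on wild-type carrier replicate 1. Adcy3, another of their markers, was highest on that array, at 10132.7. The mean deviation of the 4 tested of 16 listed markers was -0.16 there and -0.68 to 0.52 on the other 7 arrays. It was lowest on carrier replicate 2 labelled Ccl3-/-.

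The promoters of the members whose arrays moved together, or failed to, are shown first. They are the bases before the annotated start of transcription in RefSeq's promoter windows (GRCm38.p6), written 5' to 3' along the gene. Windows were found for 49 of the 57 genes. Hspa1a and Hspa1b, the neighbouring genes for the inducible cytosolic Hsp70, lie at chr17:34972157-34972406 and chr17:34959239-34959488, both on the minus strand. Capitals mark the letters GAANNTTC, a pair of heat shock element units.
Hspa1a: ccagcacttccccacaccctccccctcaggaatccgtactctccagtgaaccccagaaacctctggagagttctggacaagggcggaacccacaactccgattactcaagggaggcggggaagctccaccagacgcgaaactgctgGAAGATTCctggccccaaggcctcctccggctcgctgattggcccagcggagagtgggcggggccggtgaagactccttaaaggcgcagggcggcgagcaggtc
Hspa1b: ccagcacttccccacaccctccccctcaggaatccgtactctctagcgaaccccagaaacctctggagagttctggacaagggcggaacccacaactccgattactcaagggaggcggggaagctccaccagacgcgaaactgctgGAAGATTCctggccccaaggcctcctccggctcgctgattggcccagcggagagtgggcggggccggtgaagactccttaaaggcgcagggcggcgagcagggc

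These 250 bases were 98.8% identical and differed at 3 positions, C44T, T47C and T249G, counted from 1 at the 5' end with the Hspa1a base first. Hspd1 and Hspe1, which encode the mitochondrial chaperonin and its lid, are transcribed away from each other. The 215 bases between their start sites, chr1:55087933-55088147, are written on the strand of Hspe1, with capitals for an uninterrupted run of heat shock element units.
Hspd1-Hspe1: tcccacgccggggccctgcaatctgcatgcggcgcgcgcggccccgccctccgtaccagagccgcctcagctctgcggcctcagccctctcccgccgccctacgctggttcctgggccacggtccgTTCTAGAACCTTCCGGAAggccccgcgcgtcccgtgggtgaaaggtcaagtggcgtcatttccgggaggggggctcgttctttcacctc

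Hsp90b1 (chr10:86705445-86705694, minus strand) and Hspa5 (chr2:34771840-34772089, plus strand) encode the Hsp90 and the Hsp70 of the endoplasmic reticulum. Capitals mark the endoplasmic reticulum stress element, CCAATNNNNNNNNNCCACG or its reverse complement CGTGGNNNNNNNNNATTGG.
Hsp90b1: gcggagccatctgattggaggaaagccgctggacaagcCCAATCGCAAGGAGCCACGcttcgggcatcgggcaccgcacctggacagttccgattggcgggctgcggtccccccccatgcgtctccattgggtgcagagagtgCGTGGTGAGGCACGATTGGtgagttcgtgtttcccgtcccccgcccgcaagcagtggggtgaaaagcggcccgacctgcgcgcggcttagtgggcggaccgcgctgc
Hspa5: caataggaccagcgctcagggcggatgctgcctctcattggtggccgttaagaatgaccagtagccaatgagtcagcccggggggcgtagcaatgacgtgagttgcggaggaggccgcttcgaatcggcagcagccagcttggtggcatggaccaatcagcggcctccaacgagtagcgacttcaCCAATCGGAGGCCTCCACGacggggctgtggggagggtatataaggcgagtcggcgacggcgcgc

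Motifs were searched on both strands in 63 member windows of 300 bases, which also take in bases after the start, and in all 32851 windows of the table. The stress element of the endoplasmic reticulum occurred in 3 of the 63 member windows, those of Hsp90b1, Hspa5 and Dnajc3, and in 0.119% of all windows. The Dnajc3 match read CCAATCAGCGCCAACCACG at chr14:118937827-118937845. An uninterrupted run of 3 heat shock units, GAANNTTCNNGAA or TTCNNGAANNTTC, occurred in 6 of the 63 member windows and in 0.603% of all windows. The 6 windows belong to 4 genes, Dnajb6, Hspd1, Hspe1 and Hsph1, and the matches of Hspd1 and Hspe1 are the same bases. A pair of units, GAANNTTC or TTCNNGAA, which every longer match also contains, occurred in 16 of the 63 member windows, of 14 genes, and in 15.1% of all windows. A match describes letters, and binding was not measured.

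Of the 57 members, 53 passed the filter on low values, which asked for more than 362.7 on at least 2 arrays. The other 4 were dim on every array: Hspb1, the small heat shock protein of stressed cells, at 20.5 to 237.4, Dnajb5 at 31.0 to 110.1, Dnajb8 at 85.0 to 273.1 and Dnajc11 at 119.7 to 246.3. These were not tested. No member carried the symbol of Hsp90ab1, the constitutive cytosolic Hsp90. Differences are on the scale of log2(intensity + 102.3), which understates the changes of dim genes, and were tested in limma with Benjamini-Hochberg adjustment over all 8150 probe sets that passed.

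No member passed an adjusted p of 0.05 in any of the 7 comparisons, and neither did any other probe set (0% called). The members were therefore read against the share of probe sets with an unadjusted p under 0.05. For genotype after carrier that share was 11.4% over all probe sets and 6 of 53 members, or 11.3%. For genotype after CCL3 it was 1.48% and 0 of 53. For CCL3 in wild-type mice it was 4.29% and 1 of 53, and for CCL3 in mice labelled Ccl3-/- 4.90% and 1 of 53. It was 5.06% and 2 of 53 for the interaction, 5.93% and 4 of 53 for genotype averaged over injections, and 4.53% and 1 of 53 for CCL3 averaged over genotypes. The members' share was below the background or near it in each comparison, and above it only for genotype averaged over injections, at 7.55%.

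In the carrier comparison 33 members read higher in the mice labelled Ccl3-/- and 20 lower, with a median difference of 0.15 against -0.03 over all probe sets. After CCL3, 28 read higher and 25 lower, with a median of 0.03 against 0.02. For CCL3 in wild-type mice the median was 0.09 against -0.02, and in mice labelled Ccl3-/- it was -0.05 against 0.03. The interaction, the CCL3 difference in mice labelled Ccl3-/- minus that in wild-type mice, had a median of -0.17 against 0.04. These medians moved with single arrays. The carrier median came to 0.083 with wild-type carrier replicate 1 left out and to 0.23 with the first carrier array labelled Ccl3-/- left out, and the interaction median was -0.041 without wild-type CCL3 replicate 1. The CCL3 median in wild-type mice was 0.0047 without wild-type carrier replicate 1, and that in mice labelled Ccl3-/- was 0.021 without their CCL3 replicate 2. Genotype after carrier and CCL3 in wild-type mice share the wild-type carrier arrays, and genotype after carrier and CCL3 in mice labelled Ccl3-/- share the other carrier arrays.

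**Figure D1:**
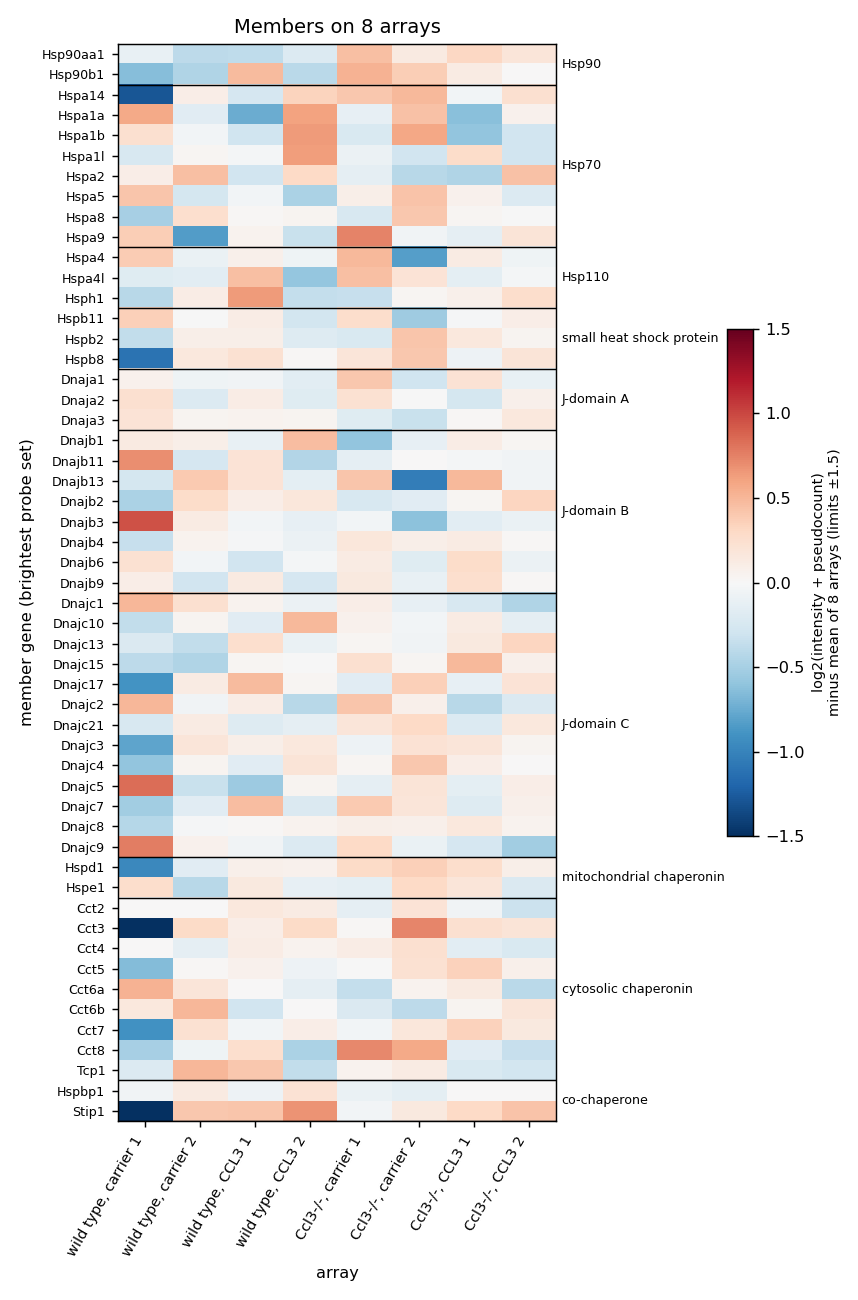
Each row is 1 of the 53 members that passed the filter, grouped by family, and each column 1 of the 8 arrays. Colour gives log2(intensity + 102.3) minus the gene's mean over 8 arrays, red above and blue below the mean, with colours limited at 1.5; the first column, wild-type carrier replicate 1, held the lowest value of 21 members.

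Wild-type carrier replicate 1 read low for many members. It held the lowest value of 21 of the 53 members (39.6%), against 22.9% of all probe sets, and the highest value of 10 (18.9%), against 20.9%. The members' median deviation from their own means was -0.18 there and -0.07 to 0.09 on the other 7 arrays. In 39 of 53 members the largest gap between the 2 arrays of a group exceeded the range of the 4 group means. In 28 members that largest gap lay between the wild-type carrier arrays. These counts were not made over all probe sets, so whether they are particular to the members was not tested. In the heat map of members by array the first column is mixed, with deep blue cells beside red ones. Over the 53 members the median ratio of the highest to the lowest array was 2.05, from 1.29 for Hspbp1, which exchanges nucleotide on Hsp70, to 11.4 for Stip1.

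Among the Hsp90 proteins, Hsp90aa1, the inducible cytosolic form, had the same genotype difference after either injection. Its intensity was 6404.0 and 5245.0 on the wild-type carrier arrays, 5296.1 and 5961.3 on the wild-type CCL3 arrays, 9437.2 and 7608.3 on the carrier arrays labelled Ccl3-/-, and 8602.6 and 7827.4 on their CCL3 arrays. All 4 arrays labelled Ccl3-/- lay above all 4 wild-type arrays. The means were 8369 ± 830.2 and 5727 ± 557 (SD, n = 4). The difference was 0.54 ± 0.25 (SE) after carrier and 0.54 ± 0.25 after CCL3, and 0.54 ± 0.17 averaged over both, a 1.45-fold difference with an unadjusted p of 0.0113 and an adjusted p of 0.808 in limma. The CCL3 difference was -0.04 ± 0.25 in wild-type mice and -0.05 ± 0.25 in mice labelled Ccl3-/-, neither past the test.

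For Hsp90b1, the Hsp90 of the endoplasmic reticulum, the carrier groups of the genotypes were apart. It read 5763.2 and 6593.3 on the wild-type carrier arrays against 13061.3 and 11674.9 on the carrier arrays labelled Ccl3-/-. After CCL3 it read 12572.1 and 6811.4 in wild-type mice and 9813.9 and 9079.3 in mice labelled Ccl3-/-. The carrier groups did not overlap, whereas the wild-type CCL3 arrays lay on either side of those labelled Ccl3-/-. The difference after carrier was 0.99 ± 0.30, 1.99-fold, with an adjusted p of 0.375 in limma. Its unadjusted p of 0.00814 in limma was the smallest of any member's brightest probe set. Dimmer tested probe sets of Hspa4 and Cct5 had smaller ones in limma, 0.00556 for genotype after carrier and 0.00525 for CCL3 in wild-type mice. After CCL3 the Hsp90b1 difference was 0.03 ± 0.30, and the interaction was -0.96 ± 0.42 with an adjusted p of 0.908 in limma. The interaction was -0.53 without wild-type CCL3 replicate 1 and -1.40 without replicate 2, and the difference after CCL3 was 0.46 and -0.41 in turn.

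In 3 of the 53 members, or 5.66%, all 4 arrays labelled Ccl3-/- lay above all 4 wild-type arrays, and in 0 members they all lay below. Over all probe sets the shares were 1.31% above and 1.88% below. Leaving out a wild-type array cannot undo such a separation, so the same 3 members had to stay separate without wild-type carrier replicate 1. No other member joined them, and the shares over all probe sets were then 2.27% and 3.45%. Besides Hsp90aa1, the 3 members were Hspd1 and Dnajc8, a J-domain protein of the splicing machinery. For CCL3, no member separated the 4 injected from the 4 carrier arrays, against 1.58% of all probe sets above and 1.14% below. These counts take the brightest probe set of each member. The dimmer tested probe sets of Hspd1 and Dnajc8 did not separate the genotypes. Among the dimmer tested probe sets, that of Cct5 lay lower on all 4 CCL3 arrays, at -0.61 ± 0.19 averaged over genotypes (adjusted p = 0.969 in limma), and that of Dnajb6, a J-domain protein that keeps polyglutamine from aggregating, lay lower on all 4 arrays labelled Ccl3-/-, at -0.30 ± 0.16 (adjusted p = 0.808 in limma). The brightest probe sets of these genes did not separate the groups. Markers of neutrophils separated the genotypes too: the mean deviation of the 11 tested of 15 listed genes was -0.71 to -0.11 on the wild-type arrays and 0.08 to 0.75 on those labelled Ccl3-/-. Their summed intensity was 88169.9 to 102352 and 94036.6 to 177533, no marker on the array was at 0, and the part of this list in the members' values was not tested.

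Hspd1, the mitochondrial chaperonin itself, read 3507.6 and 6216.3 on the wild-type carrier arrays and 7373.0 and 7310.2 on the wild-type CCL3 arrays. On the arrays labelled Ccl3-/- it read 8520.2 and 8953.1 after carrier and 8405.0 and 7441.2 after CCL3. The groups of 4 were separate, but by only a narrow margin, and the lowest array was again wild-type carrier replicate 1. The difference after carrier was 0.89 ± 0.29 (adjusted p = 0.375 in limma), and it was 0.11 ± 0.29 after CCL3. Without wild-type carrier replicate 1 the carrier difference was 0.48 ± 0.23, and without replicate 2 it was 1.29 ± 0.23, where the adjusted p of 0.0475 in limma passed. A second, dimmer Hspd1 probe set read -0.20 after carrier, so the probe sets of this gene disagreed in sign.

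Dnajc8 read 6817.6 and 9070.5 on the wild-type carrier arrays and 9276.6 and 9506.8 on the wild-type CCL3 arrays. On the arrays labelled Ccl3-/- it read 9756.7 and 9738.4 after carrier and 10299.4 and 9566.4 after CCL3. The groups did not overlap, but the size was small: 0.19 ± 0.17 averaged over injections (adjusted p = 0.844 in limma). Its other tested probe set had the same sign, with 0.48, but there the genotypes overlapped. That probe set read 2606.1 on carrier replicate 2 labelled Ccl3-/- and 3073.7 on wild-type carrier replicate 1.

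**Figure D2:**
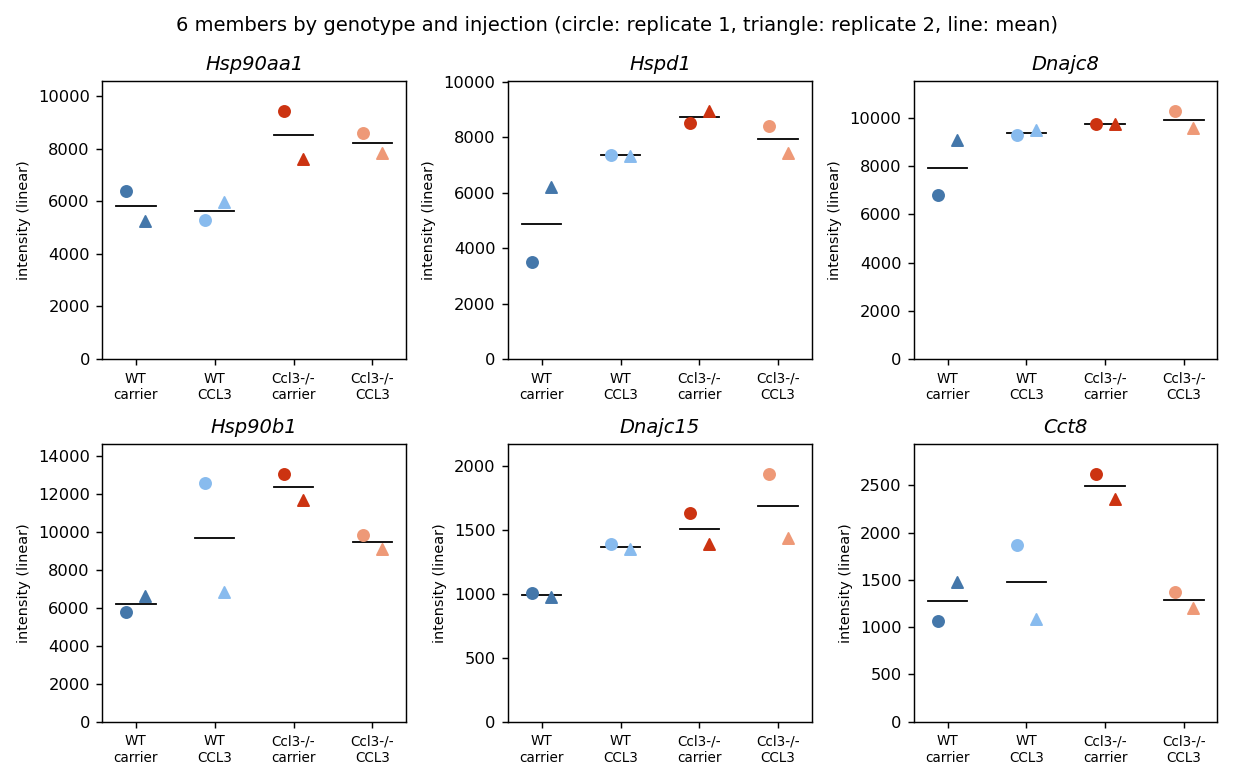
Linear intensity of 6 members in the 4 groups, with circles for replicate 1, triangles for replicate 2 and a line at the mean of each group. Hsp90aa1, Hspd1 and Dnajc8 had all 4 arrays labelled Ccl3-/- above all 4 wild-type arrays, and for Cct8 the 2 carrier arrays labelled Ccl3-/- lay above the other 6.

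Of the 5 tested mitochondrial members, 4 read higher after carrier in mice labelled Ccl3-/-, with a median of 0.56. Over all probe sets 47.9% read higher after carrier, and after CCL3 the median of these members was 0.11. Among them Dnajc15, a J-domain protein tied to the import motor of the inner membrane, was another with an unadjusted p under 0.05 in limma. Dnajc15 read 1009.8 and 973.2 on the wild-type carrier arrays and 1389.0 and 1354.4 on the wild-type CCL3 arrays, and in mice labelled Ccl3-/- 1634.0 and 1388.9 after carrier and 1943.0 and 1435.6 after CCL3. The wild-type carrier arrays were the lowest. The genotypes just overlapped, at 1389.0 on wild-type CCL3 replicate 1 and 1388.9 on carrier replicate 2 labelled Ccl3-/-. The difference was 0.56 ± 0.25 after carrier (adjusted p = 0.437 in limma) and 0.41 ± 0.18 averaged over injections (adjusted p = 0.808 in limma). Hspe1, the lid that shares its promoter stretch with Hspd1, did not follow the brightest Hspd1 probe set. Hspe1 read 5242.8 and 3232.8 on the wild-type carrier arrays, 4822.8 and 3984.8 on the wild-type CCL3 arrays, 3908.9 and 5370.6 on the carrier arrays labelled Ccl3-/- and 4956.5 and 3739.9 on their CCL3 arrays. All groups overlapped, and where that Hspd1 probe set was lowest, on wild-type carrier replicate 1, Hspe1 was the second highest of the 8. The dimmer tested Hspd1 probe set was also second highest on that array, at 802.9 in a range of 397.4 to 847.9.

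Hspa9, the mitochondrial Hsp70, read 6852.6 and 2901.7 on the wild-type carrier arrays, 5484.6 and 4144.9 on the wild-type CCL3 arrays, 8851.7 and 5072.5 on the carrier arrays labelled Ccl3-/- and 4775.6 and 6034.9 on their CCL3 arrays. Each group was wide, and the carrier difference of 0.57 ± 0.41 was within that spread. Dnaja3, the J-domain partner of Hspa9, was the mitochondrial member that read lower after carrier, by -0.38 ± 0.23. Of the proteins that work beside these members in mitochondria, 9 of 13 listed genes were tested and 0 were called. Grpel1, the nucleotide exchange factor of Hspa9, read 762.8 and 1129.9 on the wild-type carrier arrays and 1254.7 to 2138.8 elsewhere. Its carrier difference was 0.76 ± 0.31, that of Afg3l1, an inner-membrane protease subunit, 0.80 ± 0.29, and that of Htra2, a protease between the membranes, -0.76 ± 0.27, with adjusted p-values of 0.424, 0.398 and 0.396 in limma.

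In the endoplasmic reticulum, 5 of 7 members read higher after carrier in mice labelled Ccl3-/-, with a median of 0.17 and of 0.03 after CCL3. Hspa5, the Hsp70 of that compartment, read 13992.6 and 8731.9 on the wild-type carrier arrays, 10165.9 and 7547.4 on the wild-type CCL3 arrays, 11132.8 and 14172.9 on the carrier arrays labelled Ccl3-/- and 10973.3 and 9054.7 on their CCL3 arrays. The carrier groups overlapped, unlike those of Hsp90b1, although both promoters hold the stress element. The genotype difference of Hspa5 averaged over injections was 0.18 ± 0.21 (adjusted p = 0.888 in limma). Dnajc3, which restrains the kinase Perk and whose promoter also holds the element, read 1969.4 on wild-type carrier replicate 1 and 3286.2 to 4041.5 on the other 7 arrays. Another of its 3 tested probe sets read 2652.1 on that array, the second highest of its 8 values. The J-domain partners Dnajb9, Dnajb11, Dnajc1 and Dnajc10 had carrier differences of 0.11, -0.28, -0.38 and 0.17, none past the test.

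The endoplasmic reticulum folding list outside the members had 21 of 26 genes tested and 0 called. Ddit3, the transcription factor CHOP, read 656.0 and 1182.7 on the wild-type carrier arrays, 1709.8 and 2286.8 after CCL3, and 1126.6 to 2033.0 on the arrays labelled Ccl3-/-. The CCL3 difference in wild-type mice was 1.08 ± 0.35 (adjusted p = 0.911 in limma), and wild-type carrier replicate 1 was again the lowest array. Clgn, a lectin chaperone, had a genotype difference of 0.59 ± 0.26 averaged over injections (adjusted p = 0.808 in limma).

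Hspa1a and Hspa1b varied together across the arrays with no order by group. Hspa1a read 3509.5 and 2056.6 on the wild-type carrier arrays, 1352.8 and 3588.0 on the wild-type CCL3 arrays, 2130.1 and 3216.4 on the carrier arrays labelled Ccl3-/- and 1470.0 and 2453.4 on their CCL3 arrays. Hspa1b, in the same order, read 3311.3 and 2701.9, 2261.5 and 4403.4, 2375.9 and 4215.8, and 1815.7 and 2263.2. The same 3 arrays were the highest for both genes: wild-type carrier replicate 1, wild-type CCL3 replicate 2 and carrier replicate 2 labelled Ccl3-/-. In every group the 2 arrays of Hspa1a lay on either side of the median of its 8 values. The genotype differences averaged over injections were -0.12 ± 0.32 and -0.27 ± 0.26 (adjusted p = 0.961 and 0.867 in limma). These neighbouring genes are near-identical copies, so their probe sets may share RNA and are not counted as independent readings.

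Immediate early genes, which respond within minutes to handling and dissection, were high on the same arrays. The mean deviation of their 18 tested of 21 listed genes was 0.22 on wild-type carrier replicate 1, 0.12 on wild-type CCL3 replicate 2 and 0.28 on carrier replicate 2 labelled Ccl3-/-, against -0.35 to 0.07 on the other 5 arrays. Their summed intensity was 50425.9 to 73990.7 and 46919 to 52507.4 in the wild-type groups after carrier and CCL3, and 47502.6 to 67572.6 and 44292.3 to 50873.8 in the groups labelled Ccl3-/-. None of the 20 genes on the array was at 0, and the part of this list in the Hspa1a and Hspa1b values was not tested.

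Other members known to be raised by heat did not share that order. Dnajb1, the J-domain partner of inducible Hsp70, read 2213.4 and 2137.0 on the wild-type carrier arrays, 1840.7 and 2793.9 on the wild-type CCL3 arrays, 1301.2 and 1833.6 on the carrier arrays labelled Ccl3-/- and 2168.5 and 2054.7 on their CCL3 arrays. It was highest on wild-type CCL3 replicate 2, as Hspa1a and Hspa1b were, but the second lowest on carrier replicate 2 labelled Ccl3-/-. Hsph1, an Hsp110 protein with 3 consecutive heat shock units in its promoter window, read 1244.8 and 1840.1, 2697.9 and 1293.5, 1311.7 and 1723.3, and 1785.7 and 2056.4 in the same order of groups. Its highest array was wild-type CCL3 replicate 1, where Hspa1a was at its lowest. Dnaja1, a cytosolic J-domain protein, read 6542.9 and 5991.8, 6015.9 and 5593.7, 8362.8 and 5073.5, and 7331.0 and 5801.0. Its highest and lowest arrays were both in the carrier group labelled Ccl3-/-. The genotype differences averaged over injections were -0.28 ± 0.20, 0.01 ± 0.25 and 0.11 ± 0.20 for Dnajb1, Hsph1 and Dnaja1.

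**Figure D3:**
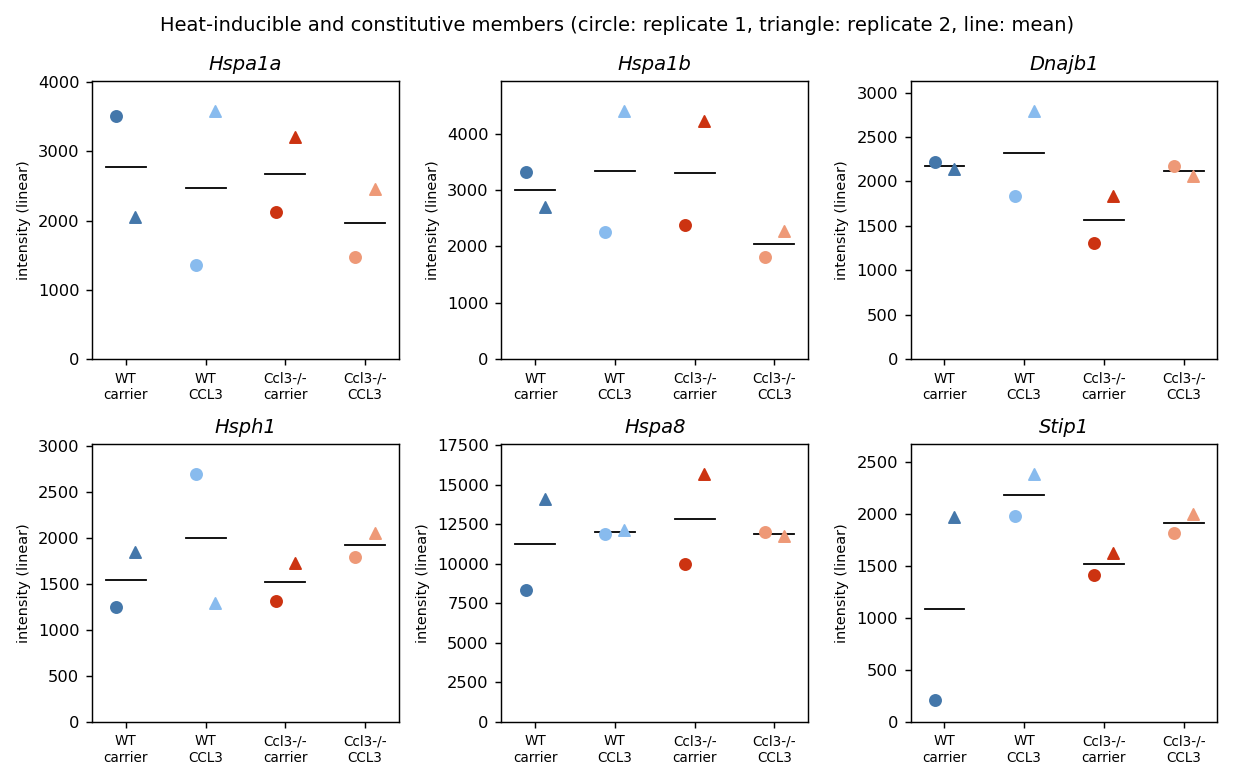
Linear intensity of the heat-inducible Hspa1a, Hspa1b, Dnajb1 and Hsph1, of the constitutive Hspa8 and of Stip1 in the 4 groups, with circles for replicate 1, triangles for replicate 2 and a line at the mean. The 2 arrays lay far apart in every group for Hspa1a. For Hspa1b they did so in the wild-type CCL3 group and the carrier group labelled Ccl3-/-. Stip1 read 209.6 on wild-type carrier replicate 1.

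Of the 6 listed heat shock factors and their binding proteins, 3 were on the array and 1, Hsbp1, which binds the factors' trimerisation domain, was tested. Hsbp1 read 2156.5 and 3686.4 on the wild-type carrier arrays, 3199.2 and 3224.2 on the wild-type CCL3 arrays, 2622.3 and 2461.5 on the carrier arrays labelled Ccl3-/- and 2654.0 and 4299.3 on their CCL3 arrays. The wild-type carrier arrays spanned both arrays of each of the wild-type CCL3 and the labelled carrier groups, and in mice labelled Ccl3-/- the carrier arrays lay below the CCL3 arrays. Of 9 other listed stress genes 7 were tested and 0 called, and the smallest p was that of Cryaa, a small heat shock protein best known from the lens, with a CCL3 difference averaged over genotypes of 0.59 ± 0.20 (adjusted p = 0.969 in limma).

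Over all 8 Hsp70 members, those of the endoplasmic reticulum and the mitochondrion included, 5 read higher after carrier in mice labelled Ccl3-/- and 3 lower. The median was 0.13 after carrier and -0.02 after CCL3. Hspa8, the constitutive cytosolic Hsp70, read 8339.6 and 14117.4 on the wild-type carrier arrays, 11902.1 and 12141.0 on the wild-type CCL3 arrays, 9978.4 and 15705.6 on the carrier arrays labelled Ccl3-/- and 12005.7 and 11754.7 on their CCL3 arrays. The CCL3 arrays lay inside the range of both carrier groups. Hspa14, which works on the ribosome, read 189.8 on wild-type carrier replicate 1 and 493.7 to 896.9 on the other 7 arrays. Its carrier difference of 1.04 ± 0.43 (adjusted p = 0.424 in limma) came to 0.35 ± 0.34 with that array left out and to 1.73 ± 0.34 with wild-type carrier replicate 2 left out. In the Hsp110 group, Hspa4 showed how far probe sets of a gene can differ: 4 were tested, and their carrier differences ran from -0.31 to 0.92. Hspa4l differed by 0.50 after carrier and -0.02 after CCL3.

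Stip1, the adaptor between Hsp70 and Hsp90, read 209.6 on wild-type carrier replicate 1 and 1965.5 on replicate 2. It read 1979.4 and 2388.5 on the wild-type CCL3 arrays, and 1414.4 and 1622.7 after carrier and 1816.0 and 2001.6 after CCL3 in mice labelled Ccl3-/-. One array was thus far below 7 others that lay close together, and the CCL3 arrays lay above the carrier arrays of mice labelled Ccl3-/-. The CCL3 difference in wild-type mice was 1.504 ± 0.658 (adjusted p = 0.911 in limma), the largest of any member in that comparison. Without wild-type carrier replicate 1 it was 0.14 ± 0.26, and without replicate 2 it was 2.87 ± 0.26, with an adjusted p of 0.0139 in limma. The carrier difference by genotype, 1.01 ± 0.66, became -0.35 ± 0.26 and 2.37 ± 0.26 in turn, the last with an adjusted p of 0.0177 in limma. Hspbp1 read 2744.8 to 3535.4, the narrowest ratio of the 53.

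Among the 20 tested of 27 listed co-chaperones of Hsp70 and Hsp90, 0 were called. Bag2, which inhibits the ligase Stub1, read 6414.1 and 5216.6 on the wild-type carrier arrays, 4840.0 and 4795.4 on the wild-type CCL3 arrays, 3599.6 and 3283.9 on the carrier arrays labelled Ccl3-/- and 5467.7 and 4801.6 on their CCL3 arrays. The carrier arrays labelled Ccl3-/- were the lowest 2, the reverse of Cct8. The carrier difference was -0.73 ± 0.24 (adjusted p = 0.375 in limma), and that of Fkbp4, an immunophilin bound to Hsp90, was -0.60 ± 0.25 (adjusted p = 0.424 in limma).

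The cytosolic chaperonin is assembled from 8 different subunits in equal number, yet its transcripts did not share a pattern. After carrier 6 of the 9 members, which include the testis form Cct6b, read higher in mice labelled Ccl3-/- and 3 lower. The median was 0.24 after carrier and -0.07 after CCL3. Cct8 read 1064.5 and 1479.5 on the wild-type carrier arrays, 1871.0 and 1088.1 on the wild-type CCL3 arrays, 2623.4 and 2351.9 on the carrier arrays labelled Ccl3-/- and 1368.3 and 1200.1 on their CCL3 arrays. The carrier arrays labelled Ccl3-/- lay above the other 6. The genotype difference after carrier was 0.93 ± 0.30 (adjusted p = 0.375 in limma), the CCL3 difference in mice labelled Ccl3-/- was -0.90 ± 0.30 (adjusted p = 0.892 in limma), and the interaction was -1.08 ± 0.42 (adjusted p = 0.908 in limma). These 3 values share the same carrier arrays, and the interaction was -0.71 without wild-type CCL3 replicate 1.

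Cct3 had the widest span of the subunits, 6.52-fold. It read 1062.9 on wild-type carrier replicate 1 and 4179.0 to 6927.1 on the other 7 arrays, and Cct7 read 2498.2 there and 4633.9 to 6085.7 elsewhere. Cct5 was lowest on the same array, at 5348.6 against 8000.8 to 10808.1. A second Cct3 probe set was also lowest there, at 1311.3, whereas the third read 1059.3 on that array and 762.6 to 1498.0 on the others. The dimmer of the 2 tested Cct5 probe sets was not low there either, at 786.9 against 372.6 to 936.6. The carrier difference of Cct3 was 1.16 ± 0.56 (adjusted p = 0.458 in limma). It came to 0.08 ± 0.32 when wild-type carrier replicate 1 was left out and to 2.24 ± 0.32 when replicate 2 was, the latter with an adjusted p of 0.0245 in limma. Its CCL3 difference in wild-type mice was 0.98 ± 0.56 with all arrays, -0.10 ± 0.32 without replicate 1 and 2.05 ± 0.32 without replicate 2, where the adjusted p was 0.0375 in limma.

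Cct8 was lowest on that array too, by a small margin, at 1064.5 against 1088.1 on the next. Of the other subunits, Cct6a was highest there, at 2231.0 against 1130.3 to 1742.8, and Cct2 and Cct4, at 914.5 and 6049.3, lay inside the ranges of 706.7 to 1060.8 and 5104.5 to 7134.5 of the other 7. Tcp1, the alpha subunit, read 751.7 and 1279.7 on the wild-type carrier arrays, 1193.7 and 654.0 on the wild-type CCL3 arrays, and 709.6 to 969.1 in mice labelled Ccl3-/-. Both wild-type groups thus spanned more than all 4 arrays labelled Ccl3-/-. Cct4 read 6501.5 and 7134.5 on the carrier arrays labelled Ccl3-/- and 5361.1 and 5104.5 on their CCL3 arrays, a difference of -0.37 that did not pass the test. Cct6b read 496.6 and 661.2, 338.9 and 438.1, 361.6 and 308.5, and 453.2 and 510.0 in the order wild-type carrier, wild-type CCL3, and carrier and CCL3 in mice labelled Ccl3-/-. Averaged over injections, the genotype differences of Tcp1 and the Cct members ran from -0.29 for Cct6a to 0.59 for Cct3.

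**Figure D4:**
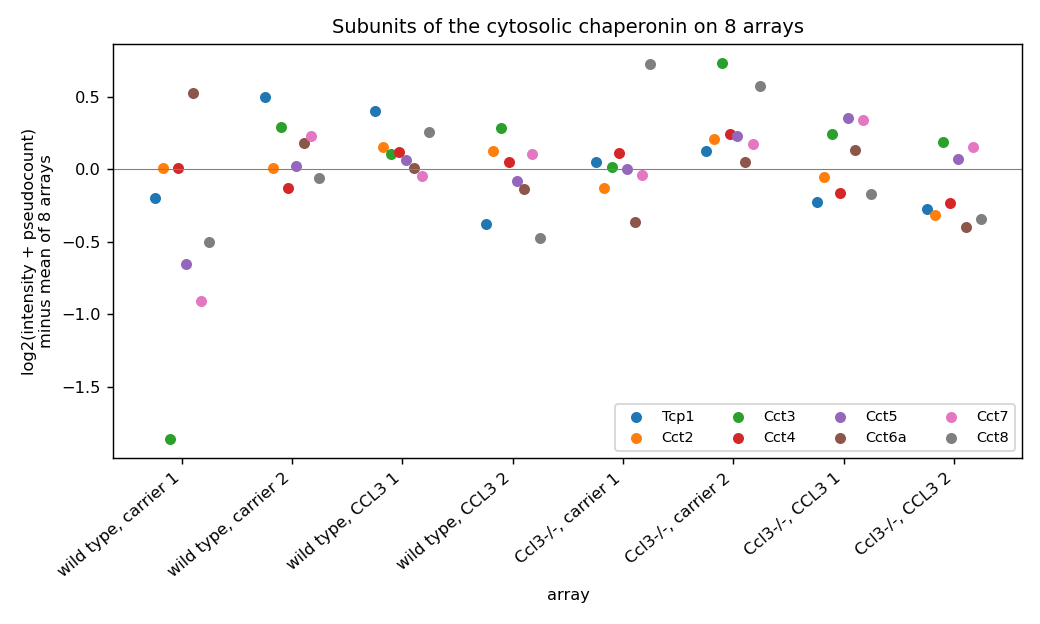
Points give log2(intensity + 102.3) minus the gene's mean over 8 arrays for the 8 subunits of the cytosolic chaperonin on each array. On wild-type carrier replicate 1 the subunits fanned out, with Cct6a above its mean and Tcp1, Cct3, Cct5, Cct7 and Cct8 below. On the 2 carrier arrays labelled Ccl3-/- Cct8 lay high.

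Prefoldin, which hands nascent actin and tubulin to the chaperonin, and other partners of the ring had 9 of 13 listed genes tested and 0 called. Of these, 8 read higher after carrier in mice labelled Ccl3-/-, with a median of 0.33 and of 0.14 after CCL3. Their mean deviation was highest on carrier replicate 1 labelled Ccl3-/-, at 0.35, and -0.18 to 0.06 on the other 7 arrays.

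Cell cycle genes, which mark dividing cells, had their highest mean deviation on carrier replicate 2 labelled Ccl3-/-, the array that held the highest value of 13 of the 53 members (24.5%) and of 15.6% of all probe sets. For the 21 tested of 26 listed genes it was 0.77 there and -0.44 to 0.12 elsewhere. The lowest was wild-type carrier replicate 1, the array that held the lowest value of 21 members. Their summed intensity was 17250.2 to 24428.7 and 19679.1 to 22986.3 in the wild-type groups after carrier and CCL3, and 18942.6 to 41937.5 and 19032.2 to 26019.3 in the groups labelled Ccl3-/-, with no listed gene on the array at 0. Markers of neuronal precursors were lowest on carrier replicate 2 labelled Ccl3-/-. The mean deviation of the 12 tested of 15 listed genes was -0.60 there and -0.32 to 0.34 elsewhere. After carrier, 10 of the 12 read lower in mice labelled Ccl3-/-, with a median of -0.55. Their summed intensity was 32022.6 to 38609.6 and 26073.7 to 40065.6 in the wild-type groups after carrier and CCL3, and 18305 to 32385.9 and 30460.4 to 35549.5 in the groups labelled Ccl3-/-, again with none at 0. Red blood cell markers, 7 tested of 11 listed, deviated by 0.93 and 0.58 on the CCL3 arrays labelled Ccl3-/- and by -0.34 to -0.10 on the other 6. The part of these 3 lists in the members' values was not tested.

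The larger J-domain subfamilies had medians of opposite sign after carrier, a difference that was not tested. In subfamily C, whose members share little beyond the J domain, 10 of 13 tested read higher in mice labelled Ccl3-/-, with a median of 0.30, and in subfamily B 6 of 8 read lower, with a median of -0.21. After CCL3 the medians were -0.01 and 0.10. The carrier medians moved with single arrays: the median deviation of subfamily C was -0.37 on wild-type carrier replicate 1 and 0.04 to 0.08 on the other 3 carrier arrays, and that of subfamily B was -0.15 on carrier replicate 2 labelled Ccl3-/- and 0.04 to 0.12 on the other 3. In subfamily C, Dnajc7, a co-chaperone that also binds Hsp90, had a carrier difference of 0.63, Dnajc4 of 0.49 and Dnajc17, a nuclear member, of 0.48. Dnajc13, of the endosome, read 0.28, Dnajc21, of the nucleolus, 0.30 and Dnajc2, of the ribosome, 0.02, whereas Dnajc5, the cysteine string protein of synaptic vesicles, read -0.22. None passed the test. Dnajc5 read 2519.6 on wild-type carrier replicate 1 and 903.1 to 1578.2 on the other arrays.

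Dnajc9, a histone chaperone of the family, was the member whose brightest probe set had a CCL3 difference averaged over genotypes at an unadjusted p under 0.05. It read 6416.3 and 3915.4 on the wild-type carrier arrays, 4589.9 and 3466.2 on the carrier arrays labelled Ccl3-/-, 3599.7 and 3215.5 on the wild-type CCL3 arrays and 3100.2 and 2575.6 on the CCL3 arrays labelled Ccl3-/-. Of the 4 CCL3 arrays 3 lay below every carrier array, and the highest array was wild-type carrier replicate 1. The difference was -0.51 ± 0.21 (adjusted p = 0.969 in limma), and -0.34 ± 0.18 without that array.

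In subfamily B the largest carrier difference was that of Dnajb3, a member best known from testis. It read 974.3 and 503.7 on the wild-type carrier arrays, 439.2 and 261.6 on the carrier arrays labelled Ccl3-/-, 439.5 and 407.9 on the wild-type CCL3 arrays, and 398.7 and 419.0 on the CCL3 arrays labelled Ccl3-/-. The spread was set by 1 high and 1 low array. The difference was -0.86 ± 0.36 (adjusted p = 0.424 in limma), -0.45 ± 0.37 without wild-type carrier replicate 1. Of the 6 tested members best known from testis, 5 read lower after carrier, with a median of -0.46, and after CCL3 the median was -0.02. Of these, Hspa2 and Hspa1l, both Hsp70 proteins, had carrier differences of -0.55 and -0.08.

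Dnajb13, of the sperm tail and the radial spokes of motile cilia, read 1749.8 on carrier replicate 2 labelled Ccl3-/- and 3053.1 to 5196.8 on the other 7 arrays. The 6 tested of 19 listed markers of multiciliated cells had their lowest mean deviation on the same array, -0.33, against -0.24 to 0.26 on the others. Foxj1, the regulator that defines these cells, read 2661.6 there and 2611.9 to 6547.6 on the other arrays. The summed intensity of the list was 10415.9 to 15333.4 and 11370.6 to 16200.9 in the wild-type groups after carrier and CCL3, and 10310.9 to 12418.4 and 13609.2 to 15001.8 in the groups labelled Ccl3-/-, with none of the 8 on the array at 0, and its part in the Dnajb13 values was not tested. The other subfamily B members, Dnajb2, Dnajb4 and Dnajb6, had carrier differences of -0.11, 0.27 and -0.13. Those of the cytosolic Dnaja2 and of Dnaja1 were 0.09 and 0.06.

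Of the small heat shock proteins, which hold unfolded proteins without ATP, 3 were tested. Hspb8, which works with Bag3 in the disposal of damaged protein, read 2816.7 on wild-type carrier replicate 1 and 5856.1 to 8195.6 on the other 7 arrays. Its carrier difference of 0.77 ± 0.37 (adjusted p = 0.458 in limma) came to 0.13 ± 0.26 with that array left out and to 1.40 ± 0.26 with wild-type carrier replicate 2 left out, where the adjusted p was 0.0489 in limma. Hspb2, a muscle member, and Hspb11, a component of the transport machinery of cilia, had carrier differences of 0.23 and -0.31.

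Set side by side, the genotype differences of the 53 members spanned -0.86 to 1.16 after carrier and -0.62 to 0.54 after CCL3. These comparisons share no array, though both use the spread pooled over all groups. Hsp90aa1 was at 0.54 in both, and the members with carrier differences near 1 (Cct3, Hspa14, Stip1, Hsp90b1, Cct8 and Hspd1) lay between -0.18 and 0.11 after CCL3. The interaction did not pass the test for any of them. Members in which CCL3 moved both arrays of one genotype above and both arrays of the other below their carrier arrays numbered 4 of 53, against 6.77% of all probe sets, and those with opposite genotype differences of this kind after the 2 injections numbered 2, against 5.03%.

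**Figure D5:**
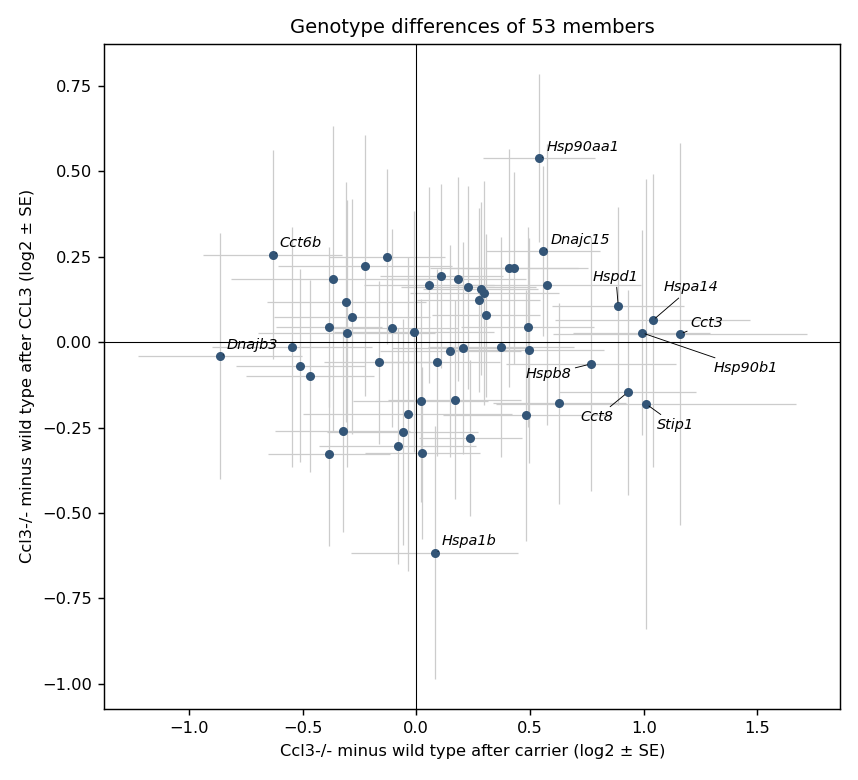
Each point is 1 of the 53 members, with its genotype difference (labelled Ccl3-/- minus wild type, log2) after carrier on the horizontal axis and after CCL3 on the vertical axis, and bars for 1 SE. The cloud is wider along the carrier axis, from -0.86 to 1.16, than along the CCL3 axis, from -0.62 to 0.54, and Hsp90aa1 lies at 0.54 on both.

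Leaving out 1 of the wild-type carrier arrays changed the members' counts in the carrier comparison of genotypes in opposite ways. Without replicate 1, the array that stood apart, 4 of 53 members (7.55%) had an unadjusted p under 0.05 against 12.7% of all probe sets. Without replicate 2, so that replicate 1 stood alone and was taken to vary like the other groups, it was 17 of 53 (32.1%) against 20.1%, and 4 members (7.55%), Stip1, Cct3, Hspd1 and Hspb8, had an adjusted p under 0.05 in limma, as did 110 of the 8150 probe sets (1.35%). Of the 9 members with several tested probe sets, 4 had the same sign in all of them in this comparison and 5 did not.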

How the data were processed

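The deposited values are linear intensities, 1 for each probe set on each array, as processed by the authors. The sources used here do not name the scaling software. Gene names came from the platform annotation: 10855 probe sets had 1 symbol, 396 several and 1237 none. Groups were taken from the sample titles. Values were analysed as log2(intensity + 102.3), the pseudocount being the 20th percentile of the table. Probe sets above 362.7, the 40th percentile, on at least 2 arrays were tested, leaving 8150 after 66 control probe sets were left out. limma 3.58.1 in R 4.3.3 fitted all 4 groups together, with 4 residual degrees of freedom, an intensity trend and Benjamini-Hochberg adjustment, and was tested on simulated data. The number of arrays limits the precision. Figures were drawn with matplotlib 3.10.9.

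The members, the pathway and marker lists and the alternatives were chosen with earlier results of these data known. Members were named if they were stress-inducible or abundant chaperones or chaperonin subunits, had an unadjusted p under 0.05 or separated the arrays of a factor; others were named to account for each family, after their values were seen. Alternatives varied scaling, pseudocount, filter, trend, samples, probe set and replicate block.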

Additional observations from a re-analysis of the deposited data

Results flagged for a closer look

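For Hsp90b1 and Hspd1, and for the chaperonin subunits Cct4 and Cct6b, both CCL3 arrays of one genotype lay above both carrier arrays while in the other genotype both lay below. The interaction that tests this was -0.96 for Hsp90b1, -0.78 for Hspd1, -0.52 for Cct4 and 0.89 for Cct6b, and none passed in limma, each with an adjusted p of 0.908. With 1 array left out at a time, it ranged from -1.40 to -0.53 for Hsp90b1, with both extremes set by the wild-type CCL3 arrays, and from -1.19 to -0.38 for Hspd1, with both set by the wild-type carrier arrays. For Cct4 it ranged from -0.59 to -0.45 and for Cct6b from 0.71 to 1.06. For Cct4 and Cct6b the genotype difference likewise had opposite signs on every array after the 2 injections, with the same interaction values of -0.52 and 0.89. Opposite movement under CCL3 was seen in 4 of 53 members and in 6.77% of all probe sets, and under genotype in 2 of 53 members and in 5.03%. All these member values come from brightest probe sets. The dimmer tested Hspd1 probe set had an interaction of 0.19 and a CCL3 difference in wild-type mice of -0.29. Both were opposite in sign to those of the brightest Hspd1 probe set.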

How the results depend on the processing

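All 7 comparisons called 0 probe sets. In the alternatives with another scaling, pseudocount, filter or trend they still called 0. With the replicate number as a block, genotype after carrier, genotype averaged over injections and CCL3 averaged over genotypes each called 1. Deviations from group means of same-numbered arrays in different groups correlated at -0.16 to 0.18. With 2 arrays in a group these values mirror those of different-numbered arrays, so they cannot show whether the numbers pair the samples. Genotype after CCL3 called 1 when only the compared groups were fitted. With 1 array left out at a time, the calls ranged from 0 to 110 for genotype after carrier, 0 to 73 for CCL3 in wild-type mice and 0 to 23 for CCL3 averaged over genotypes, each highest without wild-type carrier replicate 2; they ranged from 0 to 1 for genotype after CCL3, CCL3 in mice labelled Ccl3-/- and genotype averaged over injections. The interaction had 0 throughout. The members' median ranged from 0.083 to 0.23 for genotype after carrier, -0.0018 to 0.092 for genotype after CCL3, 0.0047 to 0.13 for CCL3 in wild-type mice, -0.090 to 0.021 for CCL3 in mice labelled Ccl3-/- and -0.22 to -0.041 for the interaction. Some differences of single members changed sign when an array was left out. For genotype after carrier, Stip1 ranged from -0.35 to 2.37. For genotype after CCL3, Hsp90b1 ranged from -0.41 to 0.46, and scaling to one median gave -0.011. For CCL3 in wild-type mice, Cct3 ranged from -0.099 to 2.05. For genotype averaged over injections, the ranges were -0.27 to 1.10 for Stip1, -0.46 to 0.21 for Hspa1a, -0.24 to 0.26 for Hsph1, -0.11 to 0.23 for Hspe1, -0.094 to 0.28 for Hspa8, -0.066 to 0.29 for Dnaja1, -0.36 to 0.033 for Tcp1 and -0.057 to 0.013 for Cct4. The cause of these shifts was not tested. Over single members and alternatives, 788 values kept their direction and side of the threshold, 7 passed it, all without wild-type carrier replicate 2, and 25 changed sign. Dim probe sets limit what can be read for Hspb1, Dnajb5, Dnajb8 and Dnajc11.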
